A study of Homo sapiens with 4 samples.

Results

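The genes described here encode the 5 NF-κB transcription factor subunits (RELA, RELB, REL, NFKB1 and NFKB2), 3 classical IκB inhibitors (NFKBIA, NFKBIB and NFKBIE) and 2 nuclear IκB proteins (NFKBIZ and BCL3). They were chosen by symbol and make up 10 of the 23228 genes in the count tables. All 10 were among the 14972 genes with enough counts to be tested. They were measured by RNA sequencing in Daoy, an established human medulloblastoma cell line. The groups were Daoy cells transduced with lentivirus for stable expression of an shRNA against PELP1 (n = 2 libraries), and Daoy cells given a control shRNA in the same way (n = 2 libraries). PELP1, a scaffold through which nuclear receptors reach chromatin factors, is linked to the NF-κB pathway by the series title. The sources used here do not say how many shRNA sequences were used, or whether the lines were pools or clones.

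NF-κB factors are dimers of the 5 subunits. RELA, RELB and REL carry an activation domain, while NFKB1 and NFKB2 encode the precursors p105 and p100, which are processed to the DNA-binding subunits p50 and p52. Classical IκB proteins hold the dimers in the cytoplasm until the IKK kinases mark them for degradation, and NFKBIA is itself switched on by NF-κB in a negative feedback loop. Nuclear IκB proteins bind p50 or p52 dimers on DNA and can either raise or lower transcription of their targets.

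A feature that can tie a gene to this pathway is the κB site, the DNA sequence NF-κB dimers bind. RefSeq promoter windows (GRCh38.p14 table) were matched by symbol for 8 of the 10 genes, in 14 windows, since several genes have more than 1 start. RELB and NFKBIE had no window in the table. The 250 bases before each start were searched on both strands for the κB consensus, and overlapping matches were merged. Of the 14 windows, 8 held a match, against 5.21% of all 35116 windows of that length. Windows of the same gene are not independent, and NFKBIA was known beforehand as an NF-κB target. The difference was not tested, and nothing is read from it. The windows with a match belonged to 6 genes, REL, NFKB1, NFKB2, NFKBIA, NFKBIB and NFKBIZ. A match is a description of the letters and not a measured binding site. The stretches are shown because they let the promoters of genes that rose and genes that fell be read side by side. Each is given 5′ to 3′ on the gene's strand, with capitals on the matching bases and with hg19 (GRCh37) positions found by exact match.

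REL, chr2:61108652-61108681, + strand: cgtcagccgcGGGAAATTCCCctcccgcca
NFKB1, chr4:103422457-103422486, + strand: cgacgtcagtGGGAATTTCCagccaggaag
NFKB2, chr10:104154218-104154247, + strand: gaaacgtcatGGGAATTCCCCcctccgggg
NFKB2, chr10:104154247-104154276, + strand: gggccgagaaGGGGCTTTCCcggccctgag
NFKB2, chr10:104155276-104155305, + strand: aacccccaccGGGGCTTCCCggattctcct
NFKB2, chr10:104155431-104155460, + strand: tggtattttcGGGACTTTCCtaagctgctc
NFKBIA, chr14:35874017-35874046, − strand: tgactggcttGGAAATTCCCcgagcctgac
NFKBIB, chr19:39390571-39390600, + strand: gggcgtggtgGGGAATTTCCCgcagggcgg
NFKBIZ, chr3:101546601-101546630, + strand: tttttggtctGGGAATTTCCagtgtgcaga
NFKBIZ, chr3:101568109-101568138, + strand: gcgcgctgtcGGGGTTTCCCggtgaagggc

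The same 10 letters, GGGAATTTCC, stood in the stretches of NFKB1, NFKBIB and the upstream start of NFKBIZ, and their reverse complement, GGAAATTCCC, in those of REL and NFKBIA. The match of NFKBIA is thus on the opposite strand, 72 to 81 bases before the start. NFKB2 had matches before 2 of its 3 starts. Among windows with a match, all 250 bases lay in annotated exons for both NFKBIZ starts and 1 NFKB2 start. Exons of any gene on either strand were counted. The windows of RELA and BCL3 held no match to the consensus in the 250 bases searched.

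Libraries held 29221640 and 26760085 counts in genes with the PELP1 shRNA and 24052542 and 26629578 with the control shRNA. PELP1 itself stood at 55.6 and 49.7 CPM with its shRNA, against 168 and 185 CPM with the control (29.8% of control). CPM here are read counts relative to the library's total, scaled by the TMM method, and are not corrected for gene length. Of 12 markers of the granule lineage and hedgehog medulloblastoma, 9 had enough counts to be tested, and 3 of these did not pass edgeR's test. Another 3 rose (GLI1 to 175% of control, PAX6 to 145% and ZIC2 to 120%), with GLI1 at 1.33 CPM at most. The other 3 fell (HHIP to 16.4% of control, GLI2 to 61.2% and PTCH1 to 70.2%). Of the 9 tested, 66.7% were thus called, against 58.1% of all genes tested. ATOH1, BARHL1 and NEUROD1, which mark the granule neuron lineage, reached 0.233 CPM at most. Leukocytes express REL and RELB strongly. The 8 leukocyte markers summed to 7.09 and 3.95 CPM with the PELP1 shRNA and 4.66 and 3.54 CPM with the control, with the pan-leukocyte marker PTPRC at 0.298 CPM at most and 6 of the 8 under 1 CPM in every library. The 5 endothelial markers summed to 9.08 and 9.03 CPM with the PELP1 shRNA and 27.5 and 26.7 CPM with the control. TEK made up 3.12 and 3.45 CPM with the PELP1 shRNA and 23.5 and 23.7 CPM with the control and fell. CDH5, at 0.899 CPM at most, fell too, while PECAM1 and VWF rose to 1.89 CPM at most. The 5 epithelial markers summed to 5.9 and 5.81 CPM with the PELP1 shRNA and 2.4 and 1.98 CPM with the control. The part of these small sums in the results was not tested. In bulk RNA a lower level in every cell and fewer cells with the transcript cannot be told apart.

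The members did not move as a block. The 2 nuclear IκB genes rose, NFKBIZ to 2.24 times the control level and BCL3 to 1.24 times. NFKB2 fell to 71.3% of control, and NFKB1, NFKBIA and NFKBIB fell to between 87.9% and 89.6%. RELA, RELB, REL and NFKBIE did not pass the test. Thus 6 of 10 members passed a false discovery rate (FDR) of 0.05 in edgeR's quasi-likelihood test, 2 higher and 4 lower, where 58.1% of all genes tested passed (28.6% higher and 29.5% lower). That share was close to the background, and nothing particular to the members is read from it. Scaled by library size alone, 63.2% of all calls were higher, against 49.1% with TMM. The median log2 fold change, PELP1 shRNA over control, was −0.11 over the members and 0.0022 over all genes tested. The median absolute log2 fold change was smaller in the members, at 0.175 against 0.26 over all genes tested. The changes of NFKB1, NFKBIA and NFKBIB were larger in size than those of only 33.8% to 38.8% of all genes tested. In all 10 genes the libraries of the groups did not overlap, and the same held for 77.7% of all genes tested.

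**Figure D1:**
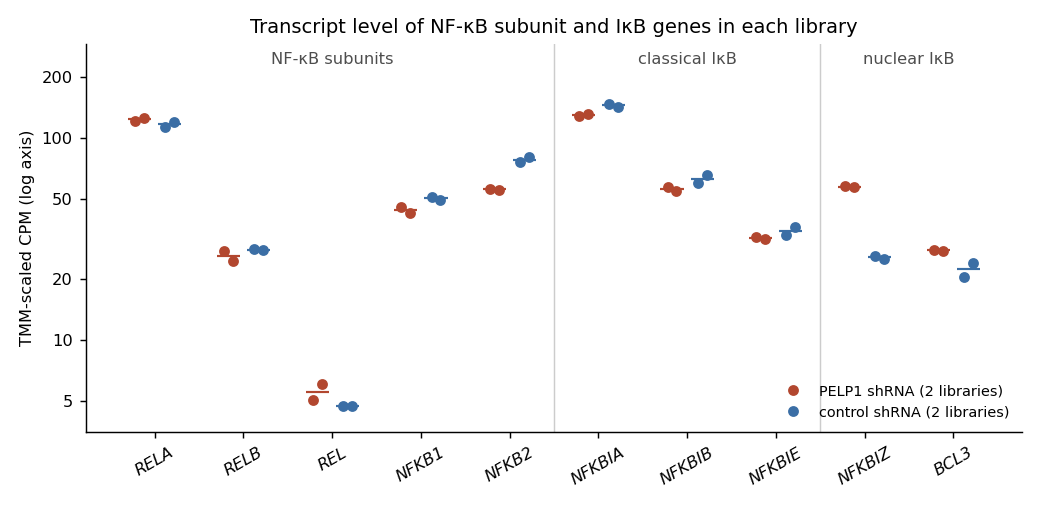
TMM-scaled CPM (log axis) of each gene in the 2 PELP1 shRNA libraries (red, left) and the 2 control shRNA libraries (blue, right); short lines are group means. NFKBIZ shows the widest gap, with 57.7 and 56.8 CPM against 25.9 and 25.3 CPM, while RELA, RELB and NFKBIE sit close together in both groups.

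NFKBIZ encodes IκBζ, an inducible nuclear protein that works with p50 at secondary NF-κB targets such as IL6 and LCN2. IL6 itself did not pass the test (log2 fold change 0.0539, edgeR FDR = 0.601), and its libraries overlapped between the groups. LCN2 was not among the genes listed. Of the 35 NF-κB target genes tested, described below, 9 rose and 19 fell (80% called, against 58.1% of all genes tested). TNF (259% of control) and IL1B (205%) were among those that rose. Whether any of these changes follows from NFKBIZ was not tested. NFKBIZ stood at 57.7 and 56.8 CPM in the PELP1 shRNA libraries, against 25.9 and 25.3 CPM in the control libraries. Both control libraries lay well below both knockdown libraries, and each pair was tight. The log2 fold change was 1.16 ± 0.06 (SE; 95% confidence interval 1.03 to 1.29; edgeR FDR = 1.34e-24). This change was larger in size than that of 93.7% of all genes tested. NFKBIZ was also the only member past a test against a 1.5-fold change (edgeR glmTreat, adjusted p = 2.87e-12), a test that 9.63% of all genes passed and 4.74% passed as higher. It lies on the plus strand of chromosome 3 (101546835 to 101579866). In the GENCODE annotation 194 of its exonic bases are shared with NXPE3 on the same strand.

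BCL3, on chromosome 19 (45250962 to 45263301), encodes a nuclear IκB protein that joins p50 or p52 homodimers. It stood at 27.8 and 27.7 CPM with the PELP1 shRNA and at 20.6 and 24.1 CPM with the control. The knockdown libraries were nearly equal and both above the more widely spaced controls. The log2 fold change was 0.31 ± 0.08 (SE; 95% confidence interval 0.15 to 0.47; edgeR FDR = 0.000614). The call rested on control replicate 1, the lower of the controls. Without it the log2 fold change was 0.20 (edgeR adjusted p = 0.0571), and without control replicate 2 it was 0.43 (adjusted p = 4.05e-05). At an assumed biological variation of 10%, in place of the 2.99% estimated from these libraries, the adjusted p was 0.12 (edgeR likelihood ratio test). Over the 15 alternatives it ran from 5.44e-06 to 0.708.

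Among the subunits, NFKB2 differed most. Its product p100 is both a precursor of p52 and an inhibitor that retains RELB dimers. The gene lies on chromosome 10 (104153867 to 104162281). NFKB2 stood at 55.9 and 54.97 CPM with the PELP1 shRNA and at 75.8 and 79.8 CPM with the control. Every control library was above every knockdown library by far more than the spread within a pair. The log2 fold change was −0.49 ± 0.05 (SE; 95% confidence interval −0.60 to −0.38; edgeR FDR = 4.11e-12). The call held at an assumed variation of 10% and was lost at 20% (edgeR likelihood ratio test, adjusted p = 0.41), the highest of its 15 alternatives, of which the lowest was 8.57e-27.

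NFKB1 on chromosome 4 (103422487 to 103538459) moved the same way but less. It had 45.6 and 42.6 CPM with the PELP1 shRNA and 51.1 and 49.2 CPM with the control. The nearest libraries of the groups were about as far apart as the knockdown libraries were from each other. The log2 fold change was −0.19 ± 0.06 (SE; 95% confidence interval −0.31 to −0.07; edgeR FDR = 0.00667). Leaving out control replicate 1 (edgeR adjusted p = 0.0515) or PELP1 shRNA replicate 2 (0.12) ended the call, as did scaling by library size alone (0.169) or by the upper quartile (0.0532) and an assumed variation of 10% (0.377). The 15 alternatives gave adjusted p from 0.000923 to 0.877.

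The activating subunits did not pass the test. RELA, which encodes p65, the main partner of p50 in the classical pathway, lies on chromosome 11 (65421070 to 65430561). It had 121 and 124 CPM with the PELP1 shRNA and 112 and 119.9 CPM with the control. The knockdown libraries were only just above the higher control. Its log2 fold change was 0.08, with a 95% confidence interval of −0.01 to 0.17 (edgeR FDR = 0.121). RELA was called higher under library size alone (0.17, adjusted p = 0.000645), with upper-quartile factors (0.13, adjusted p = 0.00866) and without control replicate 2 (0.13, adjusted p = 0.0337). Pairing unlike replicate numbers as a block, a fit added with the data in view, also called it (0.08, adjusted p = 0.0375). Its adjusted p ran from 0.000645 to 0.963 over the 15 alternatives.

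RELB, the subunit of the alternative pathway that pairs with p52, lies on chromosome 19 (45504719 to 45541450). It had 27.6 and 24.6 CPM with the PELP1 shRNA against 28.2 and 27.8 CPM with the control, so that 1 knockdown library sat beside the controls. The 95% confidence interval of its log2 fold change was −0.25 to 0.05 (edgeR FDR = 0.262). REL encodes c-Rel, a subunit best known from lymphocytes, and lies on chromosome 2 (61108626 to 61158747). It was the scarcest member, with 152 and 167 reads (5.04 and 6.06 CPM) with the PELP1 shRNA and 111 and 121 reads (4.75 and 4.70 CPM) with the control. With so few reads the interval was wide (−0.06 to 0.52 on the log2 scale; edgeR FDR = 0.18), and it reaches a 1.43-fold increase. In the GENCODE annotation 5702 exonic bases of REL also belong to an overlapping gene, where reads may be lost as ambiguous.

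**Figure D2:**
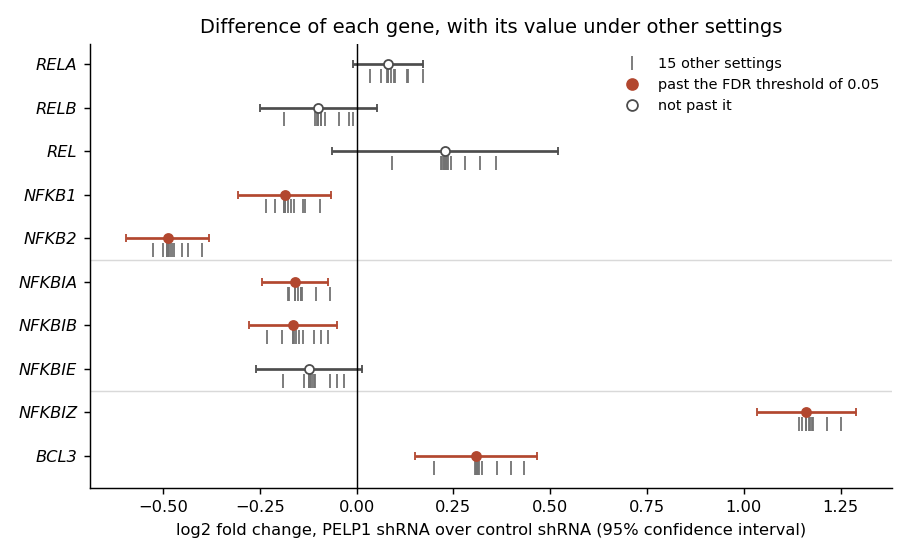
Log2 fold change of each gene, PELP1 shRNA over control shRNA, with its 95% confidence interval; filled red points passed the FDR threshold and grey ticks give the value under the 15 other settings. NFKBIZ lies at 1.16, far from the other members, and no setting moved any gene across 0.

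Of the 3 classical inhibitors, NFKBIA and NFKBIB fell slightly and NFKBIE did not pass the test. NFKBIA encodes IκBα, the fast-cycling inhibitor, on chromosome 14 (35870285 to 35873955). It had 128 and 130.3 CPM with the PELP1 shRNA and 146 and 142 CPM with the control, with close pairs and no overlap. Its log2 fold change was −0.16 ± 0.04 (SE; 95% confidence interval −0.24 to −0.07; edgeR FDR = 0.00114). The call was lost under library size alone (−0.07, adjusted p = 0.163) and at an assumed variation of 10% (adjusted p = 0.452), and over the 15 alternatives the adjusted p ran from 7.49e-06 to 0.904.

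NFKBIB, on chromosome 19 (39390340 to 39399533), encodes IκBβ, which is resynthesised more slowly than IκBα. It had 56.8 and 54.6 CPM with the PELP1 shRNA and 59.5 and 65.4 CPM with the control. The controls differed from each other more than the lower of them differed from the knockdown libraries. The log2 fold change was −0.16 ± 0.06 (SE; edgeR FDR = 0.0102). It was −0.09 without control replicate 2 (adjusted p = 0.259), and the call was also lost without PELP1 shRNA replicate 2 (0.105), with DESeq2 (0.066), upper-quartile factors (0.0824) and library size alone (0.254), and at an assumed variation of 10% (0.446). The 15 alternatives gave adjusted p from 0.00103 to 0.9. NFKBIB shares 40 exonic bases with SIRT2 on the other strand.

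NFKBIE, on chromosome 6 (44225903 to 44233525), encodes IκBε. It had 32.2 and 31.5 CPM with the PELP1 shRNA and 32.99 and 36.3 CPM with the control, and the nearest libraries of the groups were almost equal. The log2 fold change was −0.12, with a 95% confidence interval of −0.26 to 0.01 (edgeR FDR = 0.121). It was called lower without control replicate 1 (−0.19, adjusted p = 0.0401) and stood at −0.05 without control replicate 2 (adjusted p = 0.657). Over the 15 alternatives the adjusted p ran from 0.0401 to 0.937.

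Levels of different genes were compared per kilobase of the canonical transcript's exons. NFKBIA was the most abundant member in both groups, at 82.8 ± 1.15 CPM per kb with the PELP1 shRNA and 92.4 ± 1.7 CPM per kb with the control (SD, n = 2). In the knockdown libraries it was followed by RELA (48.8 ± 0.82 CPM per kb), NFKBIB (46.7 ± 1.28), NFKB2 (18.4 ± 0.23), BCL3 (14.8 ± 0.07), NFKBIZ (14.6 ± 0.16), NFKBIE (13.6 ± 0.2), RELB (11.6 ± 0.96), NFKB1 (10.9 ± 0.53) and REL (0.499 ± 0.065; SD, n = 2 each). In the controls NFKBIB came before RELA, at 52.4 ± 3.5 and 46.1 ± 2.13 CPM per kb (SD, n = 2). RELB and NFKB1 did not differ beyond their spread in either group when canonical lengths were used. With these lengths the nuclear IκB genes each stood 3 places higher with the PELP1 shRNA than with the control. NFKBIZ was next to last among the members in the controls (6.52 ± 0.12 CPM per kb; SD, n = 2) and stood beside BCL3 in the knockdown cells.

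These places depend on the length assumed. With the union of all annotated exons, a choice made after the data were seen, NFKB1 was next to last in both groups. It had 2.81 CPM per kb with the PELP1 shRNA and 3.2 CPM per kb with the control. RELB was then well above NFKB1, at 8.71 CPM per kb with the PELP1 shRNA and 9.34 CPM per kb with the control. BCL3 then had place 7 in both groups, and NFKBIZ place 6 with the PELP1 shRNA and place 8 with the control. NFKBIA, RELA and NFKBIB remained the 3 most abundant and REL the least.

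Within the subunits, RELA held 54.2 ± 1.41% of the summed CPM per kb with the PELP1 shRNA and 47.5 ± 0.91% with the control (SD, n = 2 each). NFKB2 held 20.4 ± 0.06% and 26.6 ± 0.23% (SD, n = 2 each). RELB held 12.8% in both groups, and NFKB1 12.1 ± 0.47% with the PELP1 shRNA and 12.7 ± 0.68% with the control (SD, n = 2 each). Thus the groups were apart in the balance of RELA and NFKB2 transcripts, while the libraries overlapped for RELB and NFKB1. REL held 0.554% with the PELP1 shRNA and 0.438% with the control. Under the union of exons RELA held 50.8% with the PELP1 shRNA and 44.3% with the control, and NFKB2 22.4% and 29%. RELB then held 19.7% with the PELP1 shRNA and 19.5% with the control, and NFKB1 6.34% and 6.67%. With 2 libraries against 2 an exact two-sided permutation test cannot go below p = 0.333, and no other test of the shares was run.

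The 3 classical inhibitors had similar proportions in both groups. NFKBIA held 57.8 ± 0.94% of their summed CPM per kb with the PELP1 shRNA and 57.9 ± 2.08% with the control (SD, n = 2 each), and libraries overlapped. The nuclear pair did not: NFKBIZ held 49.7 ± 0.15% of it with the PELP1 shRNA and 35.5 ± 3.0% with the control (SD, n = 2 each).

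**Figure D3:**
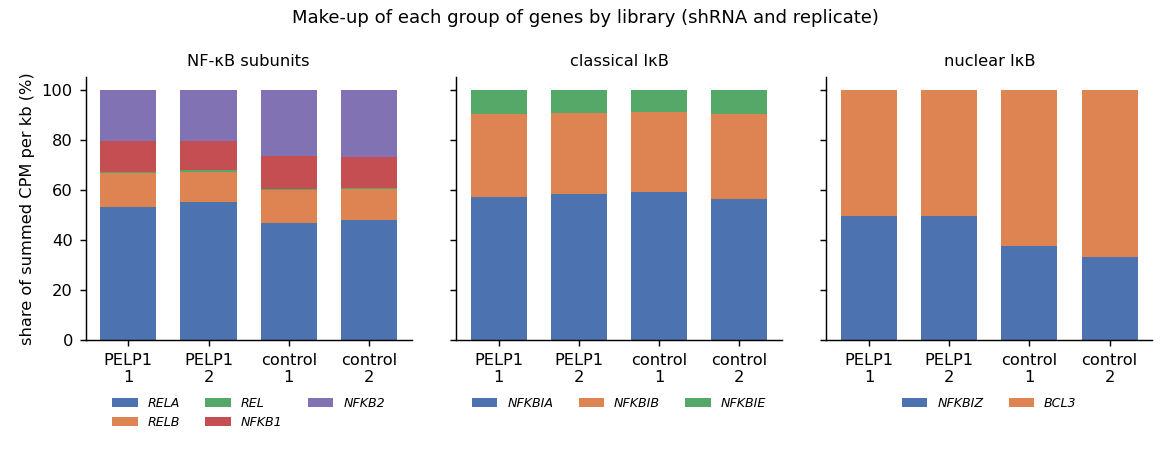
Share of the summed CPM per kb of exon held by each gene within the subunits, the classical IκB genes and the nuclear IκB genes, 1 bar for each library. RELA takes 53.2% and 55.2% of the subunits with the PELP1 shRNA against 46.9% and 48.1% with the control, and the classical inhibitors look alike in all 4 bars.

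Ratios of raw reads between partners do not depend on how libraries are scaled, and are read here only between libraries. There were 0.451 and 0.436 NFKBIZ reads for each NFKBIA read with the PELP1 shRNA, against 0.178 and 0.178 with the control, a 2.5-fold difference. The inducible nuclear IκB transcript thus stood higher relative to the feedback inhibitor. For BCL3 and its partner gene NFKB2 the ratio was 0.498 and 0.503 with the PELP1 shRNA, against 0.271 and 0.303 with the control. The BCL3 protein joins homodimers of p52, or of p50 from NFKB1. For BCL3 and NFKB1 the ratio was 0.611 and 0.65 with the PELP1 shRNA, against 0.403 and 0.49 with the control. NFKBIA reads for each RELA read numbered 1.05 and 1.05 with the PELP1 shRNA, against 1.30 and 1.19 with the control. RELA reads for each NFKB2 read numbered 2.17 and 2.26 with the PELP1 shRNA, against 1.48 and 1.5 with the control. None of the ratios computed, shown here or not, overlapped between the groups. For single genes the same held for 77.7% of all genes tested, so nothing particular to these pairs is read from it. The ratios are given without a test, since the exact permutation test has the same smallest p of 0.333.

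By likeness of profile over the 4 libraries (distance between log2 CPM centred on each gene's mean, among 11324 other genes with at least 5 CPM), the genes nearest to NFKBIZ were PLD1, TULP3 and RAB15. PLD1, which encodes a phospholipase D, had 43.0 and 41.5 CPM with the PELP1 shRNA and 18.7 and 18.0 CPM with the control. Those nearest to NFKB2 were PABPC4, SEMA4C and CDK9. PABPC4, a poly(A)-binding protein gene, had 216 and 214 CPM with the PELP1 shRNA and 293 and 308 CPM with the control. With 2 libraries a group such a profile is little more than the size of the difference.

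The other pathway genes, in lists drawn up by role, moved in both directions. Of 64 genes, 16 rose, 20 fell and 28 did not pass edgeR's test (56.2% past it, against 58.1% of all genes tested). Their median log2 fold change was −0.03. Of 11 genes listed under IKK and upstream kinases, 6 rose and 4 fell (90.9% called, against 58.1% of all genes tested). Not all of them encode kinases. TAB1, TAB2 and TAB3, which do not, were among those that rose, by 1.14-fold at most. MAP3K14, the kinase NIK that drives p100 processing, stood at 73.2 and 67.4 CPM with the PELP1 shRNA and 133 and 147 CPM with the control (edgeR FDR = 2.43e-25). It shares 858 exonic bases with an antisense gene. IKBKB, the kinase of the IKK complex that marks classical IκB proteins, was lower as well (32.1 and 34.8 CPM with the PELP1 shRNA, against 50.3 and 51.5 CPM with the control; edgeR FDR = 7.06e-13). MAP3K8, the kinase bound by p105, was scarce and rose (log2 fold change 0.78 ± 0.18, SE; edgeR FDR = 0.000141). It had 4.21 and 4.72 CPM with the PELP1 shRNA, against 2.91 and 2.29 CPM with the control. The call was lost at an assumed variation of 20% (edgeR likelihood ratio test, adjusted p = 0.138).

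Degradation of IκB and processing of p100 and p105 use a shared ubiquitin machinery, whose genes differed little. Of 12 such genes, 2 rose and the other 10 did not pass (16.7% past the test, against 58.1% of all genes). Their median absolute log2 fold change was 0.08, against 0.26 over all genes tested. BTRC, which encodes the F-box protein that recognises phosphorylated IκB, rose to 35.2 and 35.4 CPM with the PELP1 shRNA, against 28.3 and 27.1 CPM with the control (edgeR FDR = 1.49e-05). Its paralogue FBXW11 had a log2 fold change of 0.13 ± 0.04 (SE; edgeR FDR = 0.00694), a call lost without PELP1 shRNA replicate 1 (adjusted p = 0.0933).

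Of 16 adaptors and ubiquitin ligases, 2 rose and 8 fell (62.5% called, close to the 58.1% of all genes tested). TRAF1, an adaptor that is also a classical NF-κB target, stood at 7.42 and 7.84 CPM with the PELP1 shRNA and 22.4 and 21.8 CPM with the control (edgeR FDR = 1.19e-21). BIRC3, a ubiquitin ligase of the same complex and likewise a target, fell by 0.53 on the log2 scale (edgeR FDR = 7.66e-13), and the kinase adaptor gene RIPK1 rose by 0.39 (edgeR FDR = 5.09e-09). Of 12 negative regulators, 2 rose and 5 fell (58.3% called, against the same 58.1%). USP7, a deubiquitinase, was at −0.83 (edgeR FDR = 3.65e-25). NLRC5 (−0.62 on the log2 scale) and PDLIM2 (−0.62), both scarce, fell too (edgeR FDR = 2.07e-06 and 0.000337).

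Of 10 genes of nuclear import and coactivation, 2 rose and 3 fell (50% called, against 58.1% of all genes tested). KPNA3, an importin that carries p50 and p65 dimers, rose by 0.46, while the coactivator CREBBP was at −0.26 and the deacetylase HDAC1 at −0.22 (edgeR FDR at most 1.33e-05). Among the 3 remaining relatives, NFKBIL1 rose by 0.30 (edgeR FDR = 0.00342) and the repressor gene NKRF by 0.28 (edgeR FDR = 0.000491). NFKBID, the other nuclear IκB gene of this list, stood at 3.94 and 2.83 CPM with the PELP1 shRNA and 3.85 and 3.73 CPM with the control (edgeR FDR = 0.47).

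**Figure D4:**
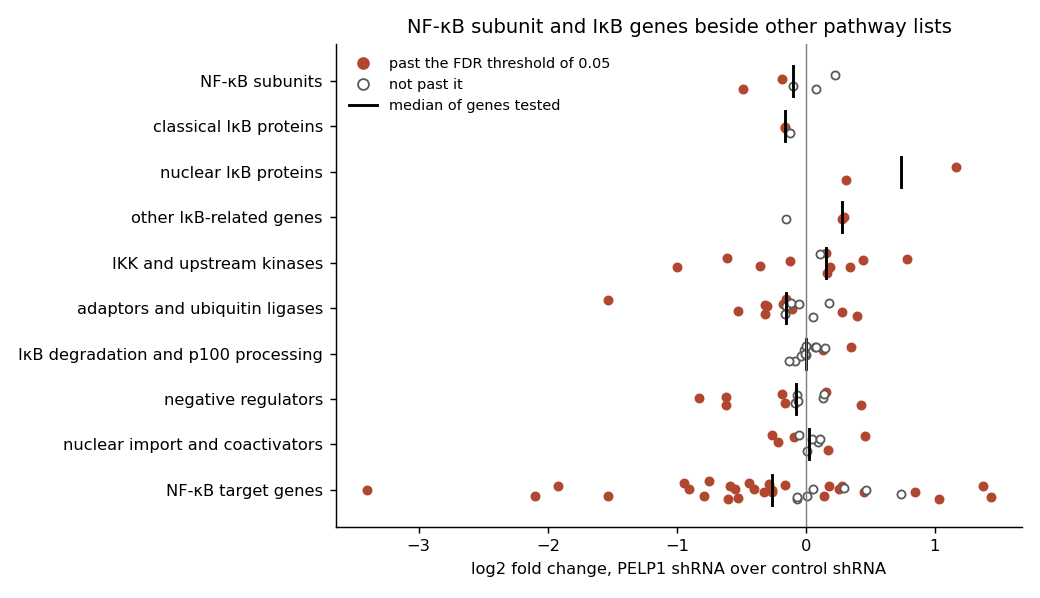
Log2 fold change, PELP1 shRNA over control shRNA, of every tested gene by role; red points passed the FDR threshold, open points did not, and black lines are medians. Degradation and processing genes lie near 0, while NFKBIZ at 1.16 stands to the right of all pathway genes outside the target list.

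NF-κB activity was not measured, and its target genes are described only by their transcript levels. The list was drawn up by role, with earlier results of these data known. It held 38 genes, of which 35 had enough counts. Of these, 9 rose, 19 fell and 7 did not pass edgeR's test, so that 80% were called, against 58.1% of all genes tested (28.6% higher and 29.5% lower). Their median log2 fold change was −0.26, against 0.0022 over all genes. The largest differences were those of MMP9, BCL2A1 and CCL5, all lower and all at under 5 CPM in both groups. CCL5 had 12 and 4 reads with the PELP1 shRNA and 24 and 28 reads with the control, and its log2 fold change of −1.92 lay between −1.40 and −2.82 when single libraries were left out. Genes chosen after their values were seen show the spread at higher levels. CCL2 had 432.5 and 448 CPM with the PELP1 shRNA and 739 and 746 CPM with the control (edgeR FDR = 1.24e-28), while CXCL1 had 12.4 and 14.8 CPM with the PELP1 shRNA, against 4.96 and 5.05 CPM with the control (edgeR FDR = 2.31e-16). TNFAIP3, the feedback deubiquitinase A20 that responds to the same dimers as NFKBIA, had 50.9 and 51.5 CPM with the PELP1 shRNA, against 52.3 and 54.8 CPM with the control (edgeR FDR = 0.336).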

How the data were processed

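Total RNA of 4 Daoy libraries was sequenced as 50 bp single-end reads. The files as deposited hold unnormalized read counts for each gene symbol. The submitters' processing notes name TopHat2 2.0.8b, HTSeq and the hg19 build, and the design text says that combined reads were aligned. Neither the annotation nor the HTSeq version or strand setting is given in the sources, so overlapping genes on either strand can lose or share reads. The 5 rows that name no gene were left out: 29.38% to 30.82% of each file was alignments that were not unique, and 8.83% to 9.08% reads in no gene.

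Genes passing filterByExpr were tested by edgeR 4.0.16 (R 4.3.3), using its robust quasi-likelihood test and TMM factors (0.967 to 1.03). The test was two-sided, with Benjamini-Hochberg adjustment over all genes tested and an FDR threshold of 0.05. DESeq2 1.42.0 and limma 3.58.1 (voom) were alternatives. The fit was tested on simulated data. Coordinates and exon lengths came from GENCODE v44 lifted to GRCh37. The listed symbols CXCL8 and OTULIN were matched through older symbols.

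Members and lists were chosen with earlier results of these data known. Genes named by rule were all members, PELP1, the 3 called genes of each list with the largest change, and the 3 nearest profiles to the called members with the largest rise and fall. The cell type markers were named as lists. IL6, TNF, IL1B, TNFAIP3, CCL2, CXCL1, NFKBID, TAB1, TAB2 and TAB3 were named outside this rule. Duplicates differed by more than counting noise (chi-square per degree of freedom 2.37 with the PELP1 shRNA and 2.47 with the control). The labels do not say whether they came from separate cultures, so the p-values reflect spread among libraries that could be technical duplicates.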

Additional observations from a re-analysis of the deposited data

How the results depend on the processing

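NFKBIZ kept its direction and its call in all 15 alternatives (log2 fold change 1.14 to 1.25), and PELP1 ranged from −1.83 to −1.67 when single libraries were left out. No member changed sign. At assumed biological variations of 10% and 20%, 4363 and 1325 of all genes passed in place of 8700. Members called higher then numbered 1 and 1 in place of 2, and members called lower 1 and 0 in place of 4. At 20% the edgeR likelihood ratio test also had 0 lower members at an unadjusted p under 0.05, where DESeq2 and limma-voom had 4. Pathway genes called higher numbered 5 and 0 in place of 16 (1 at an unadjusted p under 0.05 at 20%) and called lower 7 and 3 in place of 20. Target genes called higher numbered 5 and 3 in place of 9, and at 20% 5 were called lower in place of 19. Small differences such as those of NFKB1, NFKBIA and NFKBIB thus rest on the narrow spread of these libraries. Library size alone moved the median of all genes by 0.09 on the log2 scale and gave 63.2% higher calls in place of 49.1%. It left 1 member lower, with 26 pathway genes higher and 13 lower, and upper-quartile factors left 2 members lower.

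When single libraries were left out, members called higher ranged from 1 to 3 and lower from 2 to 4. The lone library of a group was then assumed to vary like the other group. Members past a 1.5-fold change stayed at 1, pathway genes ranged from 13 to 17 higher and 17 to 21 lower, target genes from 7 to 9 higher and 18 to 19 lower, and all genes from 7420 to 7757. Samples share only a replicate number. The correlation of the differences between replicates 1 and 2 in the 2 groups was −0.019 over all genes tested and −0.158 over those with at least 5 CPM. With the replicate block 8161 genes, 2 higher and 4 lower members, 14 higher and 17 lower pathway genes and 8 higher and 19 lower target genes were called, and no member's call changed. With the crossed block, chosen after the data were seen, 9284 genes, 3 higher and 4 lower members were called. Over the 35 single genes followed, 473 of 521 values kept direction and side of the threshold, 43 lost the call, 5 gained it and 0 reversed. Among the members, depth limits REL most, and intervals from 2 libraries a group cover these libraries only.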
